A study of Mus musculus with 2 samples.

Results

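Mir378a is the microRNA gene in the Ppargc1b gene, and it is described here together with Gm25301, a microRNA gene annotated on the opposite strand of the same place. Both were found by mapping the identifiers of the deposited count tables to the GENCODE M21 annotation, which gave 2 member genes of 2202 annotated microRNA genes; the other genes whose symbols start with Mir378 (Mir378b, Mir378c and Mir378d) served as a family comparison. Mir378a was selected on its CPM in these libraries, which was known to be high, so its level is given as a description and carries no test. The tissue was the gastrocnemius, a calf muscle, from female B6CASTF1/J mice aged 25 days with no treatment labelled. This strain is the F1 hybrid of C57BL/6J and CAST/EiJ mice. Small RNA libraries with a labelled size range below 30 were made from total RNA, as biological replicates 1 and 2 of 1 group. The females are numbered separately in the labels but carry 1 donor identifier, so the SDs below measure the spread between these 2 libraries, which may be technical. There was no second condition or tissue.

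Ppargc1b encodes PGC-1β, a transcriptional coactivator that raises the expression of genes of mitochondrial biogenesis and fatty acid oxidation in tissues with a high energy demand, such as muscle, heart and brown fat. Mir378a lies on the same strand as this gene and can be cut from the intron of its primary transcript, after which the hairpin is processed by Dicer and a mature strand is loaded into Argonaute. Mature microRNAs then repress messenger RNAs that pair with the seed, the bases near the 5′ end. Among the published targets of the miR-378a arms are Crat, a carnitine acetyltransferase of mitochondria, and Med13, a subunit of the Mediator complex.

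The hairpin of Mir378a (ENSMUSG00000105200.1) is 66 bases long and lies on the reverse strand of chromosome 18, from 61397835 to 61397900 in mm10. It lies in intron 1 of all 3 annotated Ppargc1b transcripts, 2389 bases downstream of the first exon. The gene itself spans 61298136 to 61400431, so the hairpin is near the start of a gene of 102296 bases. Gm25301 (ENSMUSG00000093026.1) spans 61397813 to 61397925 on the forward strand and is 113 bases long. It covers Mir378a entirely and reaches 22 bases beyond it on the side of lower coordinates and 25 bases beyond it on the other.

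**Figure D1:**
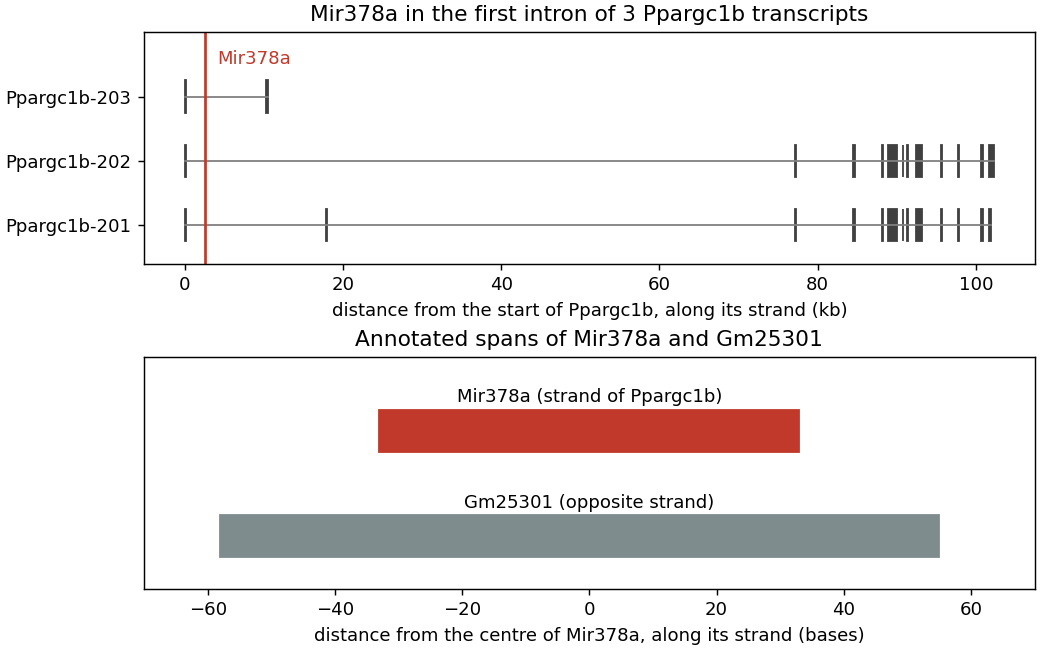
The upper panel shows exons (dark bars) of the 3 Ppargc1b transcripts against distance from the gene's start in kb, with Mir378a as a red line in the first intron. The lower panel shows the spans of Mir378a (66 bases) and Gm25301 (113 bases) against distance in bases from the centre of Mir378a, and Mir378a lies wholly within the span of Gm25301.

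The mature microRNAs of the other Mir378 genes are shown because they bear similar names but differ from each other in the seed. They are given 5′ to 3′ from RefSeq (GRCm38.p6), in which these 3 genes were matched by symbol, with the seed, bases 2 to 8, in capitals.
miR-378b: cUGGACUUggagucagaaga
miR-378c: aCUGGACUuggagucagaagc
miR-378d: aCUGGCCUuggagucagaaggu
Mature miR-378b is 20 bases long and lies on the forward strand at chr11:88352839-88352858. Mature miR-378c is 21 bases long, on the reverse strand at chr14:46954905-46954925, and mature miR-378d is 22 bases long, on the reverse strand at chr10:126710355-126710376. None of the 3 lies within a protein-coding gene on its own strand. The 3 annotated seeds differ from each other, and each of them is found in 1 of the 1738 mature microRNAs compared. The mature sequence of Mir378a was not among those compared, so whether it shares any of these seeds was not tested. Most bases of miR-378b and miR-378c are the same, and the seed of miR-378b begins 1 base further along the shared stretch.

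Depth and tissue markers were as follows. The gene-strand counts of all microRNA genes summed to 1573213 in replicate 1 and 5429127 in replicate 2. Levels are given as CPM, counts per 1000000 of this total, and 324 genes were detected, which means a CPM of 2 or more in each library. A count of 0 allows up to 3 counts, which is 1.91 CPM in replicate 1 and 0.553 CPM in replicate 2; such limits, and all intervals here, cover counting error only. No gene received reads aligned to several places, which were 68.6% and 69.7% of the total. The 7 listed markers of striated muscle were all detected and together held 3.60% of the counts of replicate 1 and 7.36% of replicate 2, most of it Mir206, a microRNA of skeletal muscle. Of these 7 genes, 5 share a stretch of 22 bases with another microRNA gene and can lose reads, so these shares may be too low. The 5 smooth muscle and fibroblast markers, 2 of which share such a stretch, held 13.3% and 6.34%, most of it Mir143. The shares of the marker lists are therefore not ranked here. The endothelial marker Mir126a held 9.33% and 10.3%. Markers of red blood cells (2 genes) held 0.270% and 0.0587%, of immune cells (4 genes) 0.270% and 0.200%, and of nerve (7 genes) 0.158% and 0.0750%, nearly all of it Mir338, a microRNA of myelinating glia. The neuronal Mir124a-1, Mir124a-2 and Mir124a-3 were at 0 in both libraries, but each shares a stretch of 22 bases with 2 other microRNA genes, so reads of their mature microRNA would be given to no gene and the 0 says little about neurons. In whole muscle, the number of cells of a type and the RNA per cell cannot be told apart.

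Mir378a was the most abundant microRNA gene by mean level among reads that aligned to 1 place. Genes that share their mature sequence with another, such as Mir1a-1, Mir1a-2, Mir133a-1, Mir133a-2 and Mir486, can lose reads to the several-places tally, so their true rank against Mir378a is not known. It had 148079 counts in replicate 1 and 560765 in replicate 2, which are 94125 and 103288 CPM. The libraries thus gave nearly the same level, with a mean of 98707 CPM ± 6479 (SD, n = 2) and an SD of 6.56% of the mean. This means that 9.41% of the microRNA-gene counts of replicate 1 (exact Clopper-Pearson 95% interval 9.37 to 9.46) and 10.3% of replicate 2 (10.3 to 10.4) fell on this hairpin. As a share of all aligned reads, those aligned to several places included, Mir378a held 2.18% and 2.48%. Its rank was 2 in each library taken alone, behind Mir143 in replicate 1 and behind Mir126a in replicate 2. Counts belong to the whole hairpin, so the 5p and 3p arms of Mir378a were not distinguished.

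The order at the top was not resolved between Mir378a and the next genes. Mir126a, an endothelial microRNA within Egfl7, had 93328 and 103367 CPM. In replicate 1 Mir378a had 1.01 times the counts of Mir126a (exact 95% interval 1.00 to 1.02), and in replicate 2 it had 0.999 times (0.996 to 1.00). Mir143 had 127590 and 59272 CPM, so Mir378a held 0.738 times its counts in replicate 1 and 1.74 times in replicate 2. The means of Mir126a and Mir143 differed from that of Mir378a by less than the spread between replicates. The other 17 of the 20 most abundant genes were below Mir378a in both libraries, and their means differed from it by more than the larger of the SDs. Mir23a, the next by mean, had 52008 and 58901 CPM, and the ratio of Mir378a to it was 1.81 and 1.75. The ratio to Mir206 was 2.70 in replicate 1 and 1.43 in replicate 2. A sequenced read is about as long as a mature microRNA, so counts were compared per hairpin. Per hairpin base the mean level was 1496 CPM for Mir378a, 1483 for Mir143 and 1347 for Mir126a.

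**Figure D2:**
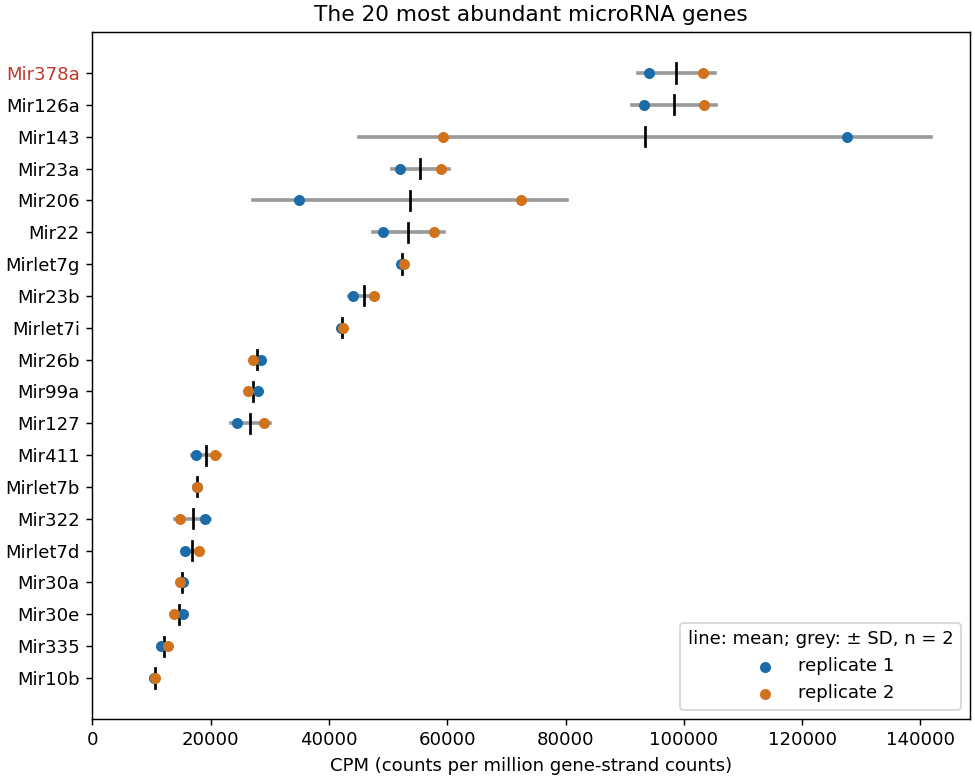
CPM on a linear axis for the 20 most abundant microRNA genes, with a point for each library, a black line at the mean and a grey bar for ± SD (n = 2). Mir378a and Mir126a overlap in both libraries, and the points of Mir143 and Mir206 lie far apart.

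The genes nearest to Mir378a in level were found by Euclidean distance of log2(CPM + 1) over the 2 libraries, which measures level and not regulation. Mir126a was nearest, at a distance of 0.012, followed by Mir143 at 0.91, Mir23a at 1.18, Mir22 at 1.26 and Mirlet7g at 1.29. Mir378a and Mir126a thus shared both their level and their small difference between the libraries, whereas Mir143 was near in mean level alone. With 2 libraries no correlation between genes can be given.

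The strand of the reads decided whether Mir378a was counted at all. In the column for the strand of the gene it had the 148079 and 560765 reads given above, and in the column for the opposite strand it had 0 in both libraries. In the column that ignores strand it had 0 and 0 as well. Gm25301 showed the mirror image: 0 reads on its own strand in replicate 1 and 1 in replicate 2, and 148079 and 560765 on its opposite strand. The opposite-strand counts of Gm25301 were therefore exactly the gene-strand counts of Mir378a in both libraries. The 1 read of Gm25301 in replicate 2 also stood in its either-strand column and was not tallied opposite Mir378a. Gm25301 was below the limit that a count of 0 allows in both libraries, so small RNA from its strand could not be told from 0 at this depth.

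The reads of Mir378a that the either-strand column lacks were found in the tally of ambiguous reads. This tally was 356588 in replicate 1 and 1318706 in replicate 2, and it was 0 in both strand-specific columns. Over the 64 microRNA genes that overlap another on the opposite strand, gene-strand counts minus either-strand counts summed to 356588 and 1318706, the tally to the read. Mir378a made up 41.5% of it in replicate 1 and 42.5% in replicate 2 (mean 42.0%, SD 0.705, n = 2). Mir126a, opposite Mir126b, made up 41.2% and 42.6%, and Mir30e, opposite Mir30f, 6.77% and 5.70%. Of the overlapping genes with gene-strand counts, 32 of 33 in replicate 1 and 39 of 42 in replicate 2 had 0 in the either-strand column. Mir126a kept 3 and 9 reads there, and Mir378a kept none. Mir126b had 1 read on its own strand in each library and Mir30f had none, so in these pairs, as in that of Mir378a with Gm25301, nearly all reads came from 1 strand.

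**Figure D3:**
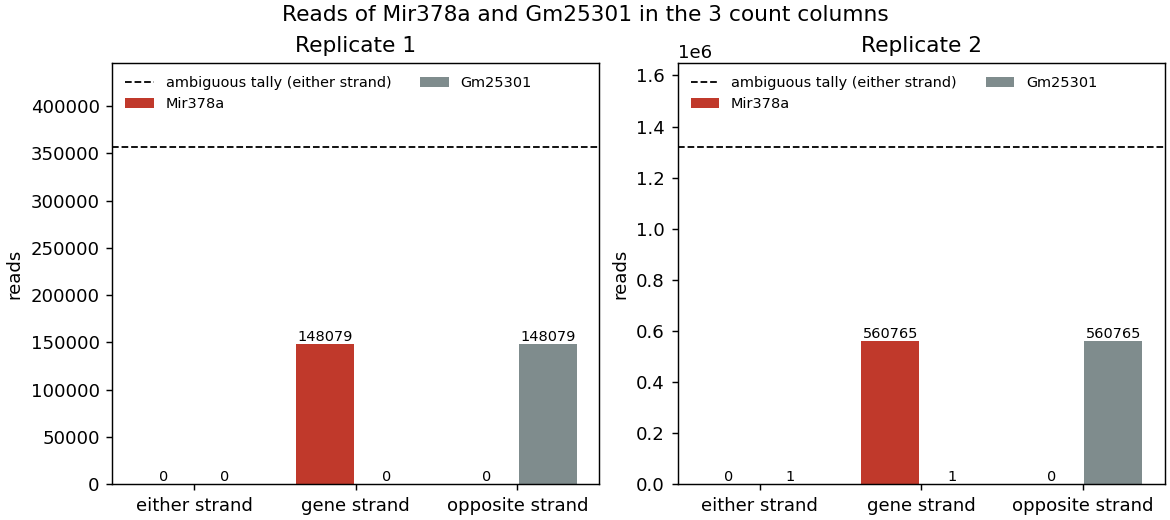
Reads of Mir378a (red) and Gm25301 (grey) in the 3 count columns of each library, on linear axes that differ between the panels, with the tally of ambiguous reads as a dashed line. The gene-strand bar of Mir378a and the opposite-strand bar of Gm25301 are equal, at 148079 and 560765 reads, and the either-strand values are 0 or 1.

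The other Mir378 genes were detected in both libraries at levels far below Mir378a. Mir378c had 78 and 244 counts, or 49.6 and 44.9 CPM. Mir378d had 66 and 235 counts, or 42.0 and 43.3 CPM, and Mir378b had 31 and 98 counts, or 19.7 and 18.1 CPM. Their means were 47.3 ± 3.28, 42.6 ± 0.942 and 18.9 ± 1.17 CPM (SD, n = 2). Mir378b was thus below both others in each library, by more than the spread between replicates. Mir378c was above Mir378d by 4.64 CPM on average, more than the larger SD of 3.28, but by 7.63 CPM in replicate 1 and 1.66 in replicate 2, on few counts. Their gene-strand and either-strand counts were equal, their opposite-strand counts were 0, and no annotated microRNA gene lies opposite them. Together they held 0.118% of the counts of the 4 genes in replicate 1 (exact 95% interval 0.101 to 0.137) and 0.103% in replicate 2 (0.0946 to 0.112). Mir378a had 846 times their summed counts in replicate 1 and 972 times in replicate 2.

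These family levels are limited by reads that fit several genes. None of the 4 hairpins shares a stretch of 22 bases with another annotated microRNA gene. At 18 bases, Mir378a, Mir378b and Mir378c each share a stretch with 2 other microRNA genes, and Mir378d with none. Only lengths of 18 and 22 bases were compared, so a shared stretch can be longer than 18 bases, though shorter than 22. Reads no longer than such a stretch would align to several places and be given to no gene, and how many of these reads came from Mir378 genes was not tested. The mature sequences of the other Mir378 genes are also alike, and their counts are few beside those of Mir378a. Whether some of these counts, and so the order of the 3 genes, came from misread or shortened reads of Mir378a was not tested. Copies outside annotated microRNA genes were not searched for.

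**Figure D4:**
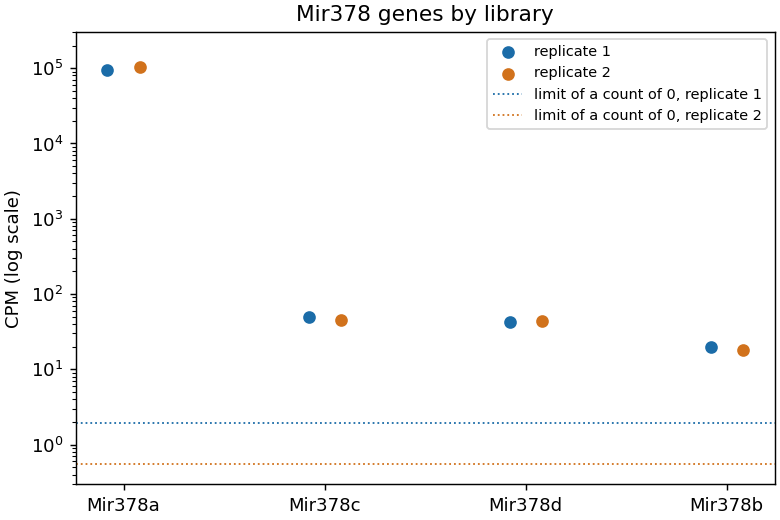
CPM of the Mir378 genes on a log axis, with a point for each library and dotted lines at the level that a count of 0 allows (1.91 and 0.553 CPM). Mir378a lies near 98707 CPM, and Mir378c, Mir378d and Mir378b lie between 18.1 and 49.6 CPM, above both lines.

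Between the libraries, Mir378a was 1.10-fold higher in replicate 2, a log2 ratio of 0.13 (exact 95% interval 0.13 to 0.14). In the two-sided exact binomial test of reads, with Benjamini-Hochberg adjustment over all 364 genes that reached 10 counts in total, its adjusted p was 2.87e-224. This test compares 2 libraries and not conditions, and it takes reads as the only source of error. By it 45.3% of all genes tested differed, 15.1% with replicate 2 higher and 30.2% with replicate 1 higher. The common biological coefficient of variation estimated with edgeR was 24.5%, which gives the log2 ratio of 1 gene an SD of 0.50, and the difference of Mir378a was well within that. Of the 324 detected genes, 75 had a smaller absolute log2 ratio than Mir378a. Mir378b, Mir378c and Mir378d had log2 ratios of -0.14, -0.15 and 0.04 and did not pass the exact test (adjusted p = 0.825, 0.619 and 0.950), with 95% intervals of -0.72 to 0.51, -0.52 to 0.25 and -0.35 to 0.46. The median log2 ratio of detected genes was -0.15, so Mir378a lay 0.29 above it. With DESeq2 size factors the log2 ratio of Mir378a was 0.27 and the split of genes past the test was 95 higher in replicate 2 and 80 in replicate 1, in place of 55 and 110.

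The difference was smaller without Mir143 in the totals. When Mir143 was left out of both library totals, an alternative chosen after seeing the data, Mir378a had 107891 CPM in replicate 1 and 109796 in replicate 2, a log2 ratio of 0.03. When Mir206 was left out as well, the levels were 112382 and 118962 CPM and the log2 ratio was 0.08. Markers of smooth muscle and fibroblasts and of slow fibres also differed between the libraries: Mir145a had 3530 and 1717 CPM, and Mir208b, in the slow myosin gene Myh7, had 219 and 994 CPM. The smooth muscle and fibroblast list did not move as 1: Mir214 went the other way, with 1674 and 2355 CPM, and of its 4 members tested 2 were higher in replicate 1, 1 was higher in replicate 2 and 1 did not pass the exact test. Over all 364 genes tested, 30.2% were called higher in replicate 1 and 15.1% higher in replicate 2, so the calls of 4 members say little. The part of these markers in the level of Mir378a was not tested.

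**Figure D5:**
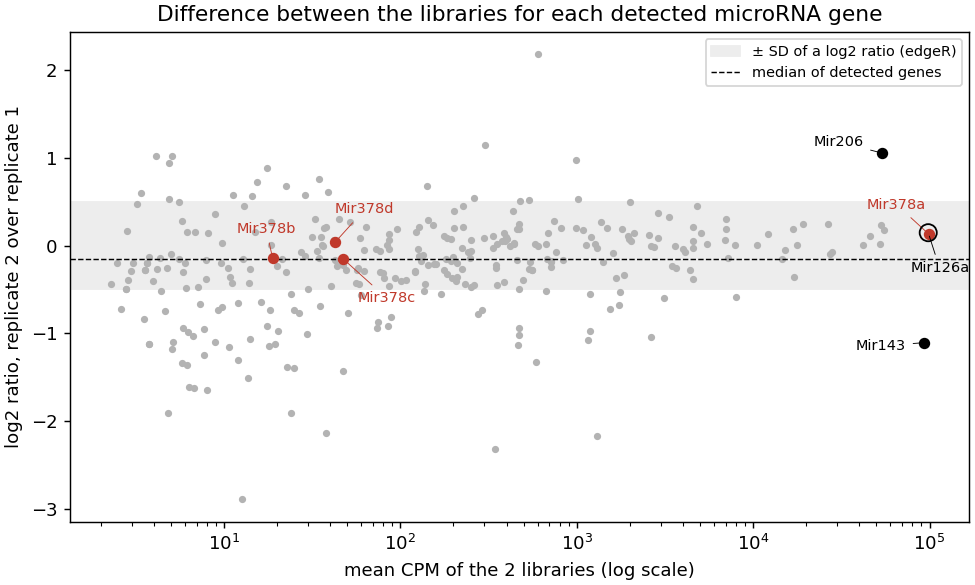
Log2 ratio of replicate 2 over replicate 1 against mean CPM (log axis) for the 324 detected genes, with the edgeR SD of a log2 ratio as a grey band (± 0.50) and the median as a dashed line. The 4 Mir378 genes (red) lie within the band, Mir126a (open circle) surrounds Mir378a, and Mir206 and Mir143 lie outside the band on opposite sides.

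MicroRNA genes were classed as intronic if they lay within a protein-coding gene on the same strand and overlapped no annotated exon of it. Among genes so classed, Mir378a was the highest in both libraries, again among reads that aligned to 1 place. Mir126a in Egfl7 overlaps an annotated exon and was left out by this rule. Its level was 93328 and 103367 CPM, in replicate 2 above the 103288 CPM of Mir378a. Intronic genes that share 22 bases with another gene, such as Mir486 in Ank1, Mir107 and Mir103-2, can be counted too low, which would make the shares of Mir378a given here too high. The 733 genes so classed, 114 of them detected, held 31.9% of the counts of replicate 1 and 32.9% of replicate 2. Mir378a alone made up 29.5% and 31.4% of that. These shares depend on the exon rule: Mir126a, left out by it, held 9.33% and 10.3% of all counts. With Mir126a in the set, the shares of Mir378a would be lower. The mean of Mir378a was 1.88 times that of the next gene classed as intronic, Mirlet7g in Wdr82, at 52398 ± 395 CPM (SD, n = 2). Mir23b in 2010111I01Rik followed at 45834 ± 2399 CPM, then Mir26b in Ctdsp1, a gene of a small phosphatase, at 27840 ± 1020 CPM, and Mir30e in Nfyc, a subunit of the transcription factor NF-Y, at 14593 ± 1070 CPM. The median of the detected intronic genes was 90.1 CPM, beside 130 CPM over all detected genes. The host transcript of Ppargc1b was not measured in these small RNA libraries.

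Other microRNAs linked to PGC-1 coactivators and oxidative metabolism spanned a wide range below Mir378a. Of 30 listed genes, 29 had a row and 25 were detected, with a median of 335 CPM. The highest were Mir23a, at 55454 ± 4874 CPM (SD, n = 2), and its relative Mir23b; Mir27b followed at 6939 ± 227 CPM and Mir149 at 4539 ± 465 CPM. Mir107, in the pantothenate kinase gene Pank1, had 462 ± 35.7 CPM, and Mir33, in the sterol regulator gene Srebf2, 6.03 ± 0.457 CPM. Mir107 is among 11 members that share a stretch of 22 bases with another microRNA gene, as are both Mir1a and both Mir133a genes, and their levels are uncertain. Of the 3 markers of brown fat, a tissue rich in PGC-1, Mir193b had 154 ± 17.6 CPM and Mir455 389 ± 78.7 CPM, both above the median of 130 CPM over all detected genes. The third, Mir365-1, had 1.27 and 2.21 CPM, was not detected by the rule used, and shares a stretch of 22 bases with another gene. Of the 27 list members tested between the libraries, 7 were higher in replicate 2, 11 in replicate 1 and 9 did not pass the exact binomial test; the background over all 364 genes is 15.1% called higher in replicate 2 and 30.2% called higher in replicate 1. The list had a median log2 ratio of -0.03 beside -0.15 over all genes tested. The slow fibre genes Mir208b and Mir499 were among the 7, at log2 ratios of 2.18 and 1.14.

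Mir378a was not the only abundant microRNA gene in its part of chromosome 18. Within 1000000 bases lay 7 other annotated microRNA genes, of which 2 were detected. These were Mir145a and Mir143, a cluster of smooth muscle and fibroblasts on the same strand, 249924 and 251295 bases away. Both were lower in replicate 2, with log2 ratios of -1.11 for Mir143 and -1.04 for Mir145a, while Mir378a had a log2 ratio of 0.13. Of the other 5, Gm25301 is described above, Mir6983 had 0 and 2 counts, Mir5107 had 1 and 1, and Mir6982 and Mir7220 had none in either library.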

How the data were processed

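The authors deposited a table of raw counts per library, with 3 count columns per microRNA gene and 4 tally rows of reads given to no gene, which stayed out of totals. From the values, these columns ignore strand, take the gene's own strand, and take its opposite strand. The assembly was mm10, per the labels, and the annotation GENCODE M21, per the deposited readme files; for the aligner and counting tool, a name was not given in the sources used here. Every one of the 2202 identifiers matched GENCODE M21. Gene-strand counts were used throughout.

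Levels are CPM of gene-strand counts. Genes with at least 10 summed counts were compared with a two-sided exact binomial test (threshold 0.05, Benjamini-Hochberg); ratios used an offset of 0.5 counts. On simulated counts for this comparison, of genes that reached the minimum, it called 58.6% of 58 changed 1.5-fold, 79.1% of 67 changed 3-fold and 0.833% of 240 unchanged. The simulated counts held counting error only, without the further spread between these libraries. These shares therefore do not give the error rate of the test on the real counts. Tools were Python 3.11.15, pandas 2.3.3, numpy 2.4.6, scipy 1.17.1, matplotlib 3.10.9, R 4.3.3, edgeR 4.0.16 (TMM, common dispersion) and DESeq2 1.42.0 (size factors), both run on detected genes.

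Members, lists and tests were chosen with earlier results of these data known. Named genes are the Mir378 genes and Gm25301, the 5 nearest in level, the leading intronic genes, opposite-strand pairs among the 20 most abundant, neighbours within 1000000 bases, and list members. Alternatives were other scalings and denominators, either-strand counts, hairpin length, no count filter, other pseudocounts and each replicate left out. The Mir378a sequence is not reported here.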

Additional observations from a re-analysis of the deposited data

Results flagged for a closer look

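Reads aligned to several places lie outside every gene count. They were 68.6% of the reads of replicate 1 and 69.7% of those of replicate 2. The tally does not say which of them came from Mir378 genes.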

How the results depend on the processing

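The mean level of Mir378a, 98707 CPM, was 98871 with TMM scaling and 99021 with DESeq2 size factors, and 94125 to 103288 with either replicate left out. It was 23307 CPM with all aligned reads as denominator, 108844 with totals without Mir143 and 115672 without Mir143 and Mir206. With either-strand counts it was 0, its rank was 630, and the share of the Mir378 genes was 0.0142% in place of 9.88%; by construction, reads that overlap Gm25301 are then ambiguous. The rank was 2 with either replicate left out (2 to 2) and 1 per hairpin length. Gm25301 had 1 count in all and 708844 in its opposite-strand column. The log2 ratio of Mir378a kept its direction and passed the exact binomial test in each of the 5 alternatives, at 0.03 to 0.27. TMM and DESeq2 scaling moved all ratios by 0.08 and 0.13. Genes differing between the libraries numbered 165 with totals (55 higher in replicate 2, 110 in replicate 1), 166 with TMM (76 and 90), 175 with DESeq2 (95 and 80) and 162 without the count minimum (52 and 110). The 5 nearest genes were shared in full under both other pseudocounts. No paired analysis was possible because there was 1 group. Depth limits Gm25301 and the low Mir378 genes.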
